A study of Mus musculus with 8 samples.

Results

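A set of 6 genes of the mature red cell were followed across mouse hearts: the alpha globin genes Hba-a1 and Hba-a2, the beta globin genes Hbb-bs and Hbb-bt, the haem synthesis enzyme Alas2 and the anion exchanger Slc4a1. They were chosen by symbol as a measure of the blood left in each heart, and all 6 were listed among the 17190 genes of the table. The hearts came from 4 male Gpihbp1-/- mice, numbered 1, 2, 3 and 4, and from 4 male wild-type mice, numbered 2, 4, 5 and 6, all on standard chow. Gpihbp1 is the capillary protein that holds lipoprotein lipase at the vessel wall, and the stated purpose was to learn what its loss does to the heart. Age, strain, the way the allele was made and any rinsing or perfusion of the hearts are not given in the sources used here.

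Haemoglobin is a tetramer of alpha and beta chains, each holding a haem group that binds oxygen. The chains are made in large amounts by erythroid precursors in the bone marrow and spleen, and young circulating red cells (reticulocytes) still carry their mRNA after the nucleus is lost. Heart muscle relies on another globin, myoglobin, so globin mRNA in a dissected heart usually comes with the blood inside its chambers and vessels.

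Whole-library facts come first. Total counts ran from 9065561 to 13492971 per library. Gpihbp1 had 0, 0, 1 and 0 reads in the knockout hearts 1, 2, 3 and 4, against 5675 reads over the wild-type hearts, so each library matched its labelled genotype. Knockout 2 and wild-type 2 stood apart in the matrix protein periostin, Postn, with 548 TPM (a level corrected for transcript length and library size) in knockout 2 and 618 TPM in wild-type 2, against 12.7 to 19.9 TPM in the other hearts. Wild-type 6 stood apart in atrial genes, with 804 TPM of the atrial light chain Myl4 against at most 3.56 TPM elsewhere. The heart muscle marker Myl2, the ventricular light chain, lay between 10292 and 38947 TPM in all 8 hearts. The fold changes of the red cell genes are therefore given with and without these 3 hearts, and list medians without the hearts that move them most. The labels do not say whether hearts shared a litter or a day, and p-values measure the spread between these samples only.

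Alpha globin mRNA was the most abundant of the set and spread widely between hearts of 1 genotype. Hba-a1 (NCBI gene 15122) stood at 1403, 697, 1285 and 627 TPM in knockout 1, 2, 3 and 4, and at 1803, 534, 495 and 7194 TPM in wild-type 2, 4, 5 and 6. Wild-type 6 was 3.99 times the next heart, and the knockout hearts lay inside the wild-type range. Its copy Hba-a2 (NCBI gene 110257) encodes the same kind of chain from a neighbouring locus. It had 894, 533, 807 and 452 TPM in the knockout hearts, in the same order, and 1190, 355, 296 and 4941 TPM in the wild-type hearts. Both copies ranked the knockout hearts alike, with knockout 1 and 3 above knockout 2 and 4.

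Beta globin followed the same pattern at a lower level. Hbb-bs (NCBI gene 100503605), the more abundant adult beta gene, had 1187, 636, 1078 and 590 TPM in knockout 1, 2, 3 and 4, and 1637, 455, 372 and 5235 TPM in wild-type 2, 4, 5 and 6. Hbb-bt (NCBI gene 101488143), the minor adult beta gene, had 255, 165, 277 and 118 TPM in the knockout hearts and 409, 96.7, 90.5 and 1154 TPM in the wild-type hearts. As with the alpha genes, wild-type 6 was highest, wild-type 2 next, and wild-type 4 and 5 lowest of all 8 hearts. Summed over the 4 globin genes, the level was 2751 ± 985 TPM in the knockout and 6564 ± 8162 TPM in the wild type (SD, n = 4 each). Without wild-type 6 the wild-type level was 2578 ± 2133 TPM (SD, n = 3). The 4 globin genes made up 0.374%, 0.203%, 0.345% and 0.179% of all TPM in knockout 1, 2, 3 and 4, and 0.504%, 0.144%, 0.125% and 1.85% in wild-type 2, 4, 5 and 6. In bulk tissue, fewer red cells and less mRNA per red cell cannot be told apart.

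**Figure D1:**
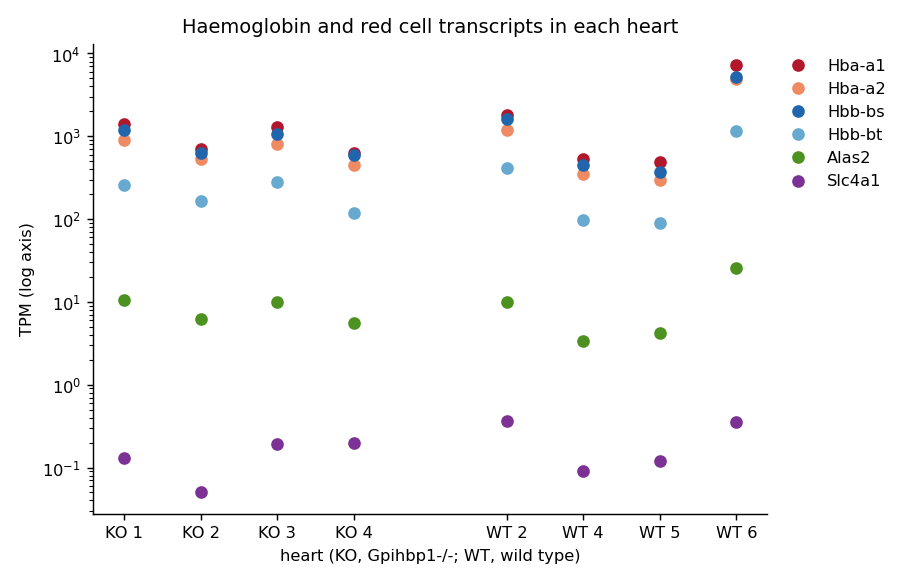
TPM on a log axis (vertical) for each of the 6 genes in each heart (horizontal), knockout (KO) left and wild type (WT) right, 1 point per heart. The globins, Alas2 and Slc4a1 keep the same order within every heart, and wild-type 6 is highest for the 4 globins and Alas2 but not for Slc4a1, where wild-type 2 has 0.36 TPM.

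The deposited read counts for gene copies were estimated, and the copies are close to identical. Over their coding bases Hba-a1 and Hba-a2 differed at 1 of 426 positions, and Hbb-bs and Hbb-bt at 1 of 441 (GENCODE M21 transcripts), with shared runs of up to 380 and 416 bases. The division of reads within a pair is therefore uncertain, while the sum of a pair does not depend on it.

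The sequence before the start of each gene is shown as background. The globins and Alas2 are known to be switched on in red cell precursors by the same erythroid factors, GATA1 and KLF1. Whether these factors bear on the levels across the hearts was not tested. Each line holds the 250 bases before the annotated start, 5′ to 3′ on the gene's strand, from RefSeq with assembly GRCm38.p6, which is not the build of the deposited table (GRCm39). Capitals mark the motif GATA, the motif CACCC, the motif CCAAT and the motif TATAA, each searched on both strands, with overlapping matches kept (as between the TATAA matches on opposite strands before Alas2). The Hba-a1 window is chr11:32283422-32283671 (plus strand), that of Hbb-bs chr7:103827929-103828178 (minus strand), that of Hbb-bt chr7:103813924-103814173 (minus strand) and that of Alas2 chrX:150547167-150547416 (plus strand).
Hba-a1: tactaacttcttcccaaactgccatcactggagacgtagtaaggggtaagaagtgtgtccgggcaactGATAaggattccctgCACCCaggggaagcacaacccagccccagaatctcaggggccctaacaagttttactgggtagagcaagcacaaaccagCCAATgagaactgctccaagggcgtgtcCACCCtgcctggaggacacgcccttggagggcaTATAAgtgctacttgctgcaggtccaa
Hbb-bs: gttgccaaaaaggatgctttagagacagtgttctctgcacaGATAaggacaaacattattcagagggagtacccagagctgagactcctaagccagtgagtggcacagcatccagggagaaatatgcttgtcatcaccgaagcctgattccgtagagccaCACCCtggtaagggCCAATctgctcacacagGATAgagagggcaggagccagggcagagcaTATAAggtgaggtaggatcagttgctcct
Hbb-bt: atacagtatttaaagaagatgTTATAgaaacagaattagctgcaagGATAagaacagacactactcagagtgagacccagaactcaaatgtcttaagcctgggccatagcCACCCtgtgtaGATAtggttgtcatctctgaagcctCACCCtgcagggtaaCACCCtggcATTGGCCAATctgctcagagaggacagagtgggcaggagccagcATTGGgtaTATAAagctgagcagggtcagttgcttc
Alas2: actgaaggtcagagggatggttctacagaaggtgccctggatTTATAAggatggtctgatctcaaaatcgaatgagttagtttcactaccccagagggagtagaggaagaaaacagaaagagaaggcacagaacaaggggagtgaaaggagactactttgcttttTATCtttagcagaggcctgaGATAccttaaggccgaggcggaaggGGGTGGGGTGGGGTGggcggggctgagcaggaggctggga
Hba-a2, at chr11:32296242-32296491 (plus strand), shared a run of 247 of the 250 bases with Hba-a1, whereas the longest run shared by Hbb-bs and Hbb-bt was 14 bases. GATA occurred in the windows of all 5 genes, and in 53.6% of the 32851 RefSeq windows of this length. CACCC, the core of the KLF1 site, likewise occurred in all 5 and in 52.0% of all windows. CCAAT was found before the 4 globin genes and in 33.8% of all windows, and TATAA before all 5 and in 22.8%. On the gene's own strand, TATAA began at base -27 before Hba-a1, -30 before Hba-a2, -29 before Hbb-bs and -28 before Hbb-bt. Before Alas2 it began at base -207, far from the start. A match of these letters describes the window and does not show that a factor was bound.

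Alas2 (NCBI gene 11656) makes the erythroid form of the first enzyme of haem synthesis and is read in red cell precursors and reticulocytes. It had 10.5, 6.28, 10.1 and 5.54 TPM in knockout 1, 2, 3 and 4, and 9.88, 3.33, 4.18 and 26.0 TPM in wild-type 2, 4, 5 and 6. These values rested on 156, 112, 149 and 78 reads in the knockout hearts and 211, 46, 57 and 587 reads in the wild-type hearts. Knockout 1 and 3 were again above knockout 2 and 4, and wild-type 6 was again highest, at 2.48 times the next heart.

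Slc4a1 (NCBI gene 20533), band 3 of the red cell membrane, exchanges chloride for bicarbonate and anchors the membrane skeleton. It was close to the limit of detection, with 5, 2, 7 and 7 reads in knockout 1, 2, 3 and 4 and 19, 3, 4 and 20 reads in wild-type 2, 4, 5 and 6. In TPM these were 0.13, 0.050, 0.19 and 0.20 in the knockout and 0.36, 0.090, 0.12 and 0.35 in the wild type. Wild-type 6 and wild-type 2 could not be separated, since the exact Poisson 95% intervals were 12.2 to 30.9 reads in wild-type 6 and 11.4 to 29.7 reads in wild-type 2 (counting error only). In TPM, in contrast to the globins, Slc4a1 in wild-type 6 was not above wild-type 2. The intervals are for raw reads, whereas the fits scaled the libraries by unlike factors, 0.678 for wild-type 6 and 1.07 for wild-type 2. With so few reads, whether Slc4a1 departed from the globins in wild-type 6 cannot be decided.

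In all 8 hearts the order by TPM was Hba-a1, Hbb-bs, Hba-a2, Hbb-bt, Alas2, Slc4a1. Between hearts the neighbours Hba-a1, Hbb-bs and Hba-a2 overlapped widely, at 1003 ± 398, 873 ± 304 and 671 ± 212 TPM in the knockout (SD, n = 4). The drop to Hbb-bt was clearer, at 204 ± 74.9 TPM in the knockout, where its highest value of 277 lay under the lowest Hba-a2 value of 452. The highest heart was 12.8-fold to 16.7-fold above the lowest for the globins, 7.80-fold for Alas2 and 7.2-fold for Slc4a1. Without wild-type 6 the globins spanned 3.64-fold to 4.52-fold and Alas2 3.15-fold, and Slc4a1 still 7.2-fold.

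Between the genotypes none of the red cell genes passed the test. Of the 6 genes, 5 had enough reads to be tested and 0 passed an adjusted p of 0.05 in edgeR's quasi-likelihood test, where 4 of all 12826 tested genes passed (0.0312%; 0.0234% higher and 0.0078% lower in the knockout). At an unadjusted p under 0.05 there were also 0 of the 5, against 0.904% of all genes, and the groups overlapped for all 5, while they did not overlap for 0.632% of all genes. Hba-a1 averaged 241 ± 106 CPM (counts scaled to library size, with TMM factors) in the knockout and 1271 ± 2070 CPM in the wild type (SD, n = 4 each). Its log2 fold change, knockout over wild type, was -2.40 with a 95% interval from -4.93 to 0.14 (edgeR unadjusted p = 0.0611, adjusted p = 0.99998). Hba-a2 had -2.43 (-4.98 to 0.12), Hbb-bs -2.17 (-4.57 to 0.23), Hbb-bt -2.11 (-4.46 to 0.24) and Alas2 -1.30 (-3.25 to 0.65). The median log2 fold change of the 5 was -2.17, beside -0.019 over all genes tested. Summing the copies before the fit gave -2.41 with a standard error of 1.13 for alpha and -2.16 with a standard error of 1.07 for beta. Slc4a1 fell under the count filter; in a fit of 17162 genes with no filter it had -1.25 (-3.07 to 0.57; edgeR adjusted p = 0.99995).

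For the globins and Alas2, the size of these negative values rested on wild-type 6. Without that heart, edgeR's log2 fold changes were 0.017 for Hba-a1, 0.049 for Hba-a2, 0.0084 for Hbb-bs, -0.047 for Hbb-bt and 0.42 for Alas2, and 0 of the 5 passed, where 0.0230% of genes did. At an unadjusted p under 0.05 in edgeR 0 of the 5 were higher in the knockout (0.215% of genes), and in 0 of the 5 were all knockout hearts above all wild-type hearts (0.552% of genes). Their 95% intervals still reached from -1.38 to 1.42 for Hba-a1 and from -0.73 to 1.57 for Alas2. In limma on log2(TPM + 1), which averages logarithms and has no TMM factor, Hba-a1 had -0.53, Hbb-bs -0.40 and Alas2 -0.030 with all 8 hearts (limma adjusted p at least 0.927). Total-count scaling alone in edgeR gave -1.89 for Hba-a1. Without wild-type 2, wild-type 6 and knockout 2, the 3 knockout hearts left were above the 2 wild-type hearts left for all 5 genes, where this held for 8.53% of genes. The log2 fold changes there ran from 1.24 for Hba-a1 to 1.35 for Hbb-bt, with edgeR unadjusted p-values from 0.00668 to 0.0166 (1% of genes were higher at an unadjusted p under 0.05) and an adjusted p of 0.99986 for each, so that 0 of the 5 passed, where 0.0231% of genes did. These choices of hearts share samples, and the hearts left out were known to differ in globin level. The sign of the genotype difference in red cell mRNA therefore changed with the hearts included, and it passed the test in none of these choices.

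**Figure D2:**
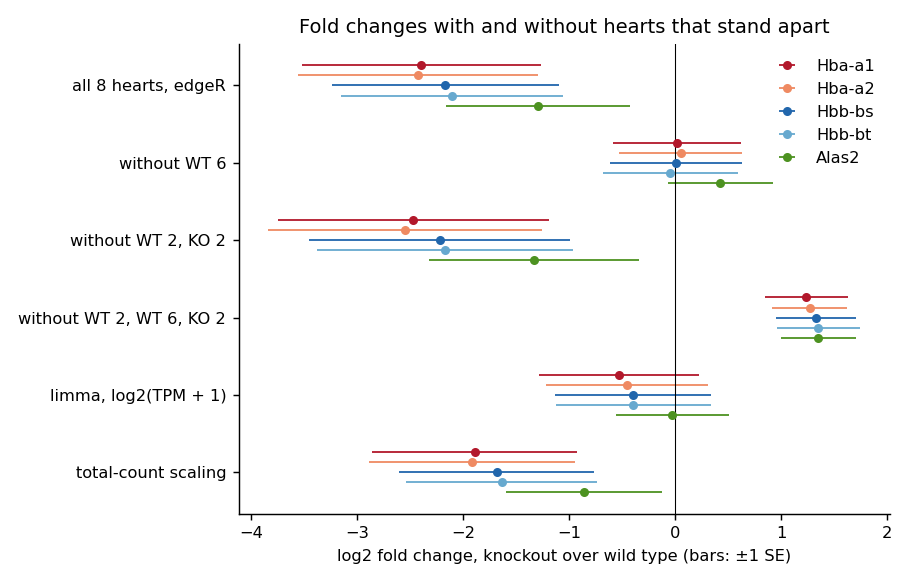
Log2 fold change, knockout over wild type (horizontal; points, with bars of ±1 standard error), of the 5 tested genes under 6 fits (vertical). With all 8 hearts Hba-a1 lies at -2.40, without wild-type 6 at 0.017, and without wild-type 2, wild-type 6 and knockout 2 at 1.24.

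Ratios between the red cell genes varied far less than their levels. The alpha to beta ratio in TPM was 1.59, 1.54, 1.54 and 1.52 in knockout 1, 2, 3 and 4, and 1.46, 1.61, 1.71 and 1.90 in wild-type 2, 4, 5 and 6. It averaged 1.55 ± 0.030 in the knockout and 1.67 ± 0.18 in the wild type (SD, n = 4 each), with overlapping groups. Within the alpha pair, Hba-a1 over Hba-a2 lay between 1.31 and 1.59 in the knockout and between 1.46 and 1.67 in the wild type. Within the beta pair, Hbb-bs over Hbb-bt lay between 3.86 and 4.98 in the knockout and between 4.00 and 4.71 in the wild type. The ratio spanned 1.28-fold within the alpha pair and 1.29-fold within the beta pair. Because reads shared by 2 near-identical copies were divided by estimation, a steady ratio within a pair does not show that the copies moved together.

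Alas2 did not keep pace with the globins in every heart. The summed globins stood at 357, 323, 342 and 323 times the Alas2 level in knockout 1, 2, 3 and 4, a narrow range with a mean of 336 ± 16.4 (SD, n = 4). In wild-type 2, 4, 5 and 6 the ratio was 510, 433, 300 and 714, a mean of 489 ± 173 (SD, n = 4), or 414 ± 106 without wild-type 6 (SD, n = 3). The knockout values lay inside the wild-type range.

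**Figure D3:**
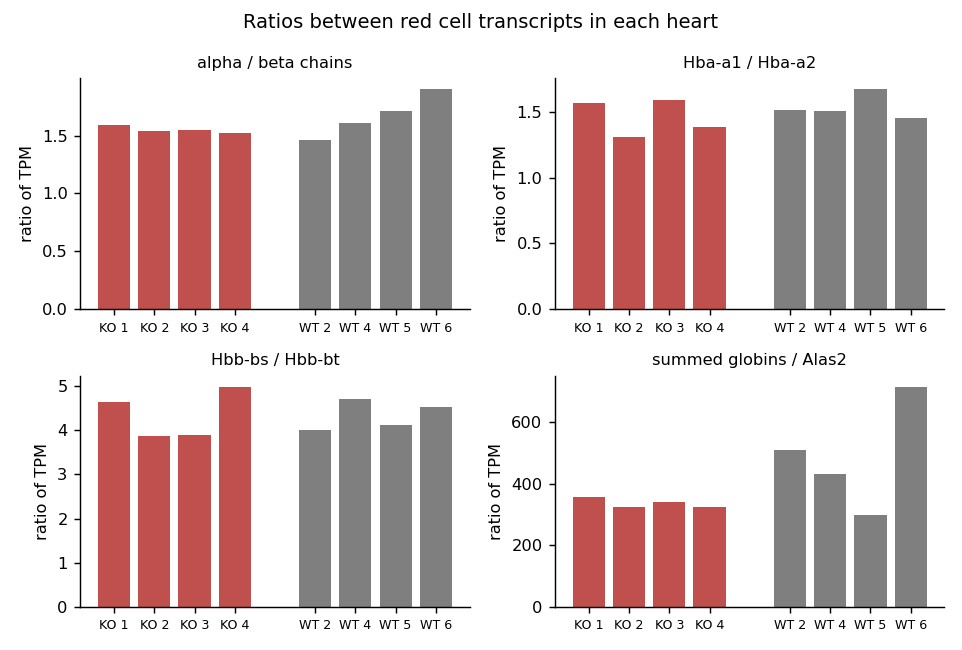
Ratios of TPM (vertical, axes from 0) in each heart (horizontal), knockout (KO, red) left and wild type (WT, grey) right, 1 bar per heart. The ratios of gene copies stay within 1.28-fold and 1.29-fold, while summed globins over Alas2 reach 714 in wild-type 6 against 323 to 357 in the knockout hearts.

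Wild-type 6 also differed from the other hearts by transcript length, which bears on short mRNAs such as globins. Against the mean of the other 7 hearts on the log2 CPM scale, the median deviation of wild-type 6 was 0.62 for the 430 other tested genes with transcripts under 600 bases and 0.49 for the 1739 from 600 to 1000 bases. It was 0.22 for the 3358 genes from 1000 to 2000 bases, -0.13 for the 4621 from 2000 to 4000 bases and -0.40 for the 2339 longer ones. Myoglobin, Mb, a short and abundant mRNA of heart muscle, deviated by 1.78. The globins deviated by more, from 4.05 for Hbb-bt to 4.44 for Hba-a2, while the largest deviation of another gene was 2.82 among those under 600 bases, the class of Hba-a2 and Hbb-bs, and 8.57 among those from 600 to 1000 bases, the class of Hba-a1 and Hbb-bt. At least 1 other gene thus exceeded the globins in the second class, and none did in the first. The value of 8.57 belonged to Myl4, the atrial light chain high in wild-type 6. Such values were rare, since the 90th percentile was 2.10 in the first class and 1.55 in the second. The longer Alas2 (1965 bases, median of its transcripts) deviated by 3.18, less than the globins, and Slc4a1 (4545 bases) by 1.73. Slc4a1 had only 20 reads in wild-type 6. A constant added to each CPM before the logarithm also lowers the deviation of so rare an mRNA. Whether Slc4a1 deviated less than Alas2 can therefore not be decided. In their classes the largest deviations of other genes were 3.30 from 1000 to 2000 bases and 2.28 from 4000 bases up, above Alas2 and above Slc4a1. The value of 3.30 belonged to Stard10, an atrial marker with 95.2 TPM in wild-type 6 against at most 33.0 TPM elsewhere. The part of transcript length in the globin level of wild-type 6 was not tested.

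**Figure D4:**
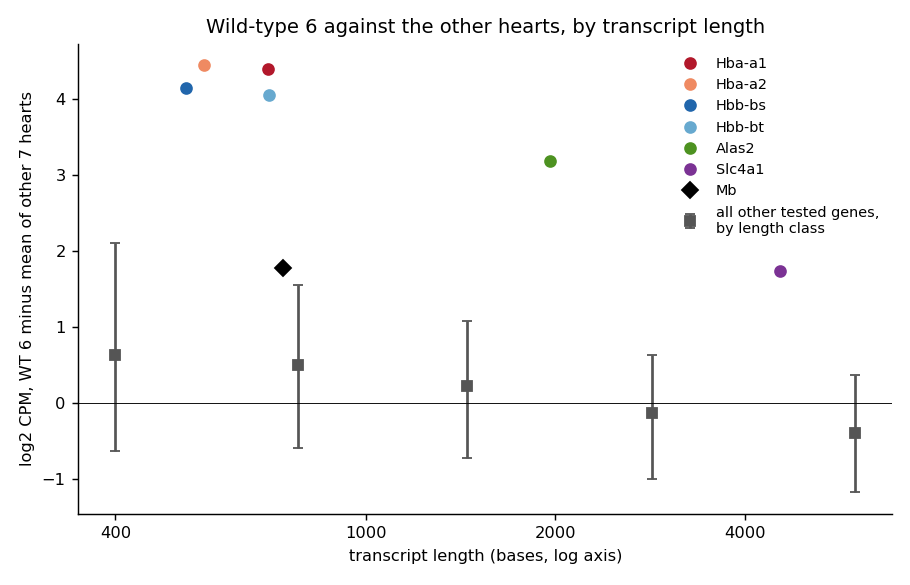
Log2 CPM of wild-type 6 minus the mean of the other 7 hearts (vertical) against transcript length in bases (horizontal, log axis). Grey squares, drawn inside 5 length classes, are medians of the other tested genes, with bars from the 10th to the 90th percentile. The red cell genes (circles) lie above the median of their class, from 4.44 for Hba-a2 to 1.73 for Slc4a1. The Slc4a1 value rests on few reads and is lowered by the constant added before the logarithm. Mb (diamond) is at 1.78.

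Other genes of the red cell lineage ranged widely in read number. Ahsp, the chaperone of free alpha chains, had 0, 2, 1 and 1 reads in knockout 1, 2, 3 and 4 and 0, 0, 0 and 7 in wild-type 2, 4, 5 and 6. Of the 10 erythroid transcription factors 5 were tested, 0 passed and the median log2 fold change was -0.060, and 1 of the 10 was highest in wild-type 6 (Gata1, 2 reads there and 0 in every other heart). Klf1 had 2, 0, 0 and 0 reads in the knockout and 1, 0, 4 and 1 in the wild type, and Tal1 had 176, 90, 89 and 74 reads in the knockout and 72, 204, 104 and 37 in the wild type. These 3 factors were picked out after their values were seen. Ldb1 and Lmo2, which also serve other cell types, were the most abundant, Lmo2 at 33.8 ± 3.82 TPM in the knockout and 26.3 ± 11.7 TPM in the wild type (SD, n = 4 each).

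Genes for the red cell membrane and skeleton gave no call between the genotypes. Of 20 such genes 13 were tested, 0 passed and the median log2 fold change was 0.0061. Many are also made in muscle or endothelium: the water channel Aqp1 stood at 344 ± 212 TPM in the knockout and 290 ± 219 TPM in the wild type, and the actin-capping Tmod1 at 174 ± 48.0 and 144 ± 76.7 TPM in the knockout and the wild type (SD, n = 4 each). Red cell maturation genes and enzymes had 14 of 21 tested, 0 passed and a median of -0.21 (0.032 without wild-type 6), with the peroxidase Prdx2 at 503 ± 49.97 TPM in the knockout and 496 ± 28.6 TPM in the wild type and catalase, Cat, at 103 ± 17.3 and 85.8 ± 64.3 TPM in the same order.

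The haem pathway outside Alas2 was likewise without a call. All 11 haem synthesis genes were tested, 0 passed, 4 were positive and 7 negative with a median of -0.033. By TPM, 0 of 11 were highest in wild-type 6. On the scaled log2 counts, however, the median deviation of the list from its mean over the hearts was highest in wild-type 6, at 0.38. Alas1, the housekeeping form of the first enzyme, had 107, 106, 194 and 181 TPM in knockout 1, 2, 3 and 4 and 63.2, 77.1, 225 and 39.1 TPM in wild-type 2, 4, 5 and 6. In TPM wild-type 6, highest in Alas2, was thus lowest in Alas1. On the scaled counts of the fit, with a factor of 0.678 for wild-type 6, it was not the lowest in Alas1. Tmem14c, a mitochondrial porphyrin transporter, stood at 215 ± 28.7 TPM in the knockout and 201 ± 23.1 TPM in the wild type. In the iron supply list 11 of 11 were tested, 0 passed and the median was -0.054, and its leading genes were the ferritin chains Fth1 (3666 ± 104 TPM in the knockout, 3801 ± 426 in the wild type) and Ftl1 (1850 ± 1696 and 1952 ± 1839 TPM in the knockout and the wild type). Ftl1 was high in knockout 2 and wild-type 2, the hearts high in periostin, at 4388 TPM in knockout 2 and 4691 TPM in wild-type 2.

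Among the genes that take up and break down free haemoglobin and haem, 9 of 11 were tested, 0 passed and the median was -0.040. That median was -0.34 without knockout 2 and 0.37 without wild-type 2, so its sign turned with single hearts. Hmox1, the enzyme that opens the haem ring, had 10.8, 370, 9.60 and 13.7 TPM in knockout 1, 2, 3 and 4 and 186, 10.1, 10.4 and 2.89 TPM in wild-type 2, 4, 5 and 6. It was high in the hearts high in periostin and lowest in wild-type 6, the heart with the most globin. Slc48a1, a haem transporter, stood at 64.2 ± 7.38 TPM in the knockout and 62.0 ± 11.5 TPM in the wild type (SD, n = 4 each). Of 12 other globin genes 5 were listed and 2 tested, with 0 passing and a median of -0.31. Mb stood at 24058 ± 9751 TPM in the knockout and 24264 ± 9857 TPM in the wild type, and Cygb, a globin of fibroblasts, at 50.8 ± 5.14 and 48.8 ± 16.9 TPM in the knockout and the wild type.

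Other blood cells were measured by their own markers. Of 12 platelet genes 5 were tested, 0 passed and the median was -0.32, or 0.38 without wild-type 6, 0.31 without wild-type 2 and -0.62 without knockout 2. In 7 of the 12 wild-type 6 was highest by TPM. Of these 7 only Gp1bb and Itga2b were tested, and the others fell under the count filter. Over all tested genes wild-type 6 was highest in 2.39%, a share given as a description only and over a set unlike the 12. Gp9, part of the platelet von Willebrand receptor and picked out after its values were seen, had 6, 12, 17 and 1 reads in knockout 1, 2, 3 and 4 and 8, 3, 2 and 61 in wild-type 2, 4, 5 and 6. Pf4, a platelet chemokine that some macrophages also make, instead had 74.5, 585, 79.1 and 72.8 TPM in the knockout and 503.8, 92.4, 54.8 and 87.9 TPM in the wild type, and was high in knockout 2 and wild-type 2. Ppbp, another platelet chemokine, had 5.54, 26.0, 8.98 and 0.44 TPM in the knockout and 6.10, 5.37, 0.76 and 7.32 TPM in the wild type. The platelet sum ran from 76.0 to 621 TPM in the knockout and from 58.3 to 517 TPM in the wild type.

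Neutrophil markers did not follow the globins in every heart. Of 12 such genes 6 were tested and 0 passed. At an unadjusted p under 0.05 in edgeR there were 2 (Cxcr2 and Mmp9), where 0.904% of all genes reached it. The median was 1.53 (0.86 without knockout 2, 1.51 without wild-type 6), and 0 of 12 were highest in wild-type 6. S100a8, a calcium-binding protein of neutrophil granules, had 77.8, 301, 210 and 6.44 TPM in knockout 1, 2, 3 and 4 and 26.1, 17.4, 7.31 and 37.5 TPM in wild-type 2, 4, 5 and 6. Its partner S100a9 had 48.8, 149, 117 and 7.0 TPM in the knockout and 15.2, 12.9, 5.24 and 24.1 TPM in the wild type. Both ranked the wild-type hearts as the globins did, in the order 6, 2, 4 and 5, but were highest in knockout 2. Csf3r, another of the list, was instead lowest in wild-type 6 by TPM, at 1.49 TPM. On the scaled counts of the fit wild-type 6 was not the lowest in Csf3r. The neutrophil sum ran from 24.1 to 689 TPM in the knockout and from 22.0 to 129 TPM in the wild type, and Ly6g was at 0 in knockout 4 and in all 4 wild-type hearts. Lymphocyte markers were sparse, with 1 of 12 tested, 0 passing, a log2 fold change of 0.020 and sums from 2.22 to 7.07 TPM in the knockout and from 5.10 to 10.9 TPM in the wild type. The B cell receptor genes Cd79a and Cd79b led them, Cd79b with 34 reads over the knockout and 79 reads over the wild type.

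Markers of the heart itself placed the high globin of wild-type 6 beside atrial mRNA. Of 8 atrial genes 5 were tested and 0 passed. At an unadjusted p under 0.05 in edgeR there were 2 (Myl4 and Dkk3), where 0.904% of all genes reached it. The median was -1.60, and without wild-type 6 it was 0.042. Myl7, the other atrial light chain, stood at 643 TPM in wild-type 6 and at most 1.72 TPM elsewhere. Nppa, the atrial natriuretic peptide, was by contrast highest in knockout 2, at 10791 TPM, against 2807 TPM in wild-type 6. Ventricular muscle genes (10 of 10 tested, 0 passed, median -0.076) ran from 51234 to 103079 TPM in sum in the knockout and from 48744 to 95255 TPM in the wild type, with Myl2 and Actc1 leading. Endothelial genes (10 of 10 tested, 0 passed, median -0.036) ran from 491 to 1044 TPM in the knockout and from 370 to 1419 TPM in the wild type, with Egfl7 and Esam leading. For all 13 gene lists DESeq2 also called 0 members, whereas the fit with a replicate block called 1 member in each of 5 lists (haem synthesis, red cell membrane and skeleton, haem clearance, atrial and endothelial). In the fit without the block, 0 had an unadjusted p under 0.05 in edgeR apart from the 2 neutrophil and 2 atrial genes named.

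**Figure D5:**
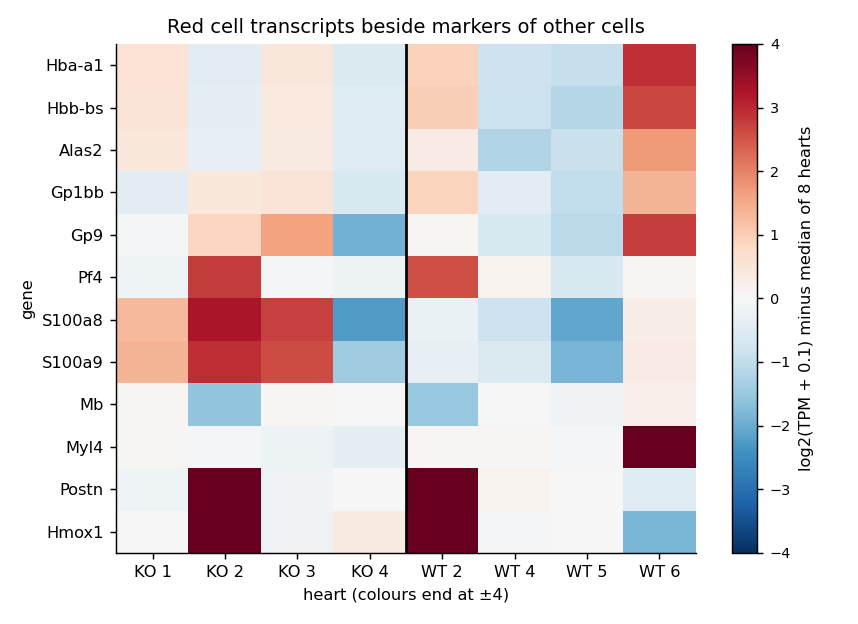
Level of 12 genes (rows) in each heart (columns; knockout left of the black line, wild type right), as log2(TPM + 0.1) minus the median of the 8 hearts, with colours ending at ±4. The globins, Alas2, Gp1bb, Gp9 and Myl4 are highest in wild-type 6, S100a8 and S100a9 in knockout 2, and Postn and Hmox1 are high in knockout 2 and wild-type 2.

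The genes most like the summed globins were sought among 12354 others with at least 1 CPM, by the root mean square difference of centred log2 CPM over the 8 hearts. The globins themselves lay within 0.063 to 0.14 log2 units of their sum, and Alas2 at 0.43. The nearest other gene was Gp1bb, a subunit of the platelet von Willebrand receptor, at 0.74, against a median of 1.68 over all candidates. It had 0.89, 1.70, 1.80 and 0.78 TPM in knockout 1, 2, 3 and 4 and 2.37, 0.87, 0.57 and 3.29 TPM in wild-type 2, 4, 5 and 6. Nrgn, a calmodulin-binding protein also found in platelets, was at 0.81. Rps29, Rps27 and Rps21, ribosomal proteins, and Cops9 and Tmem256 were also among the 8 nearest, at 0.78 to 0.82. These last 5 have short transcripts, from 390 to 546 bases, and wild-type 6 exceeded the mean of the other hearts in them by 2.48 to 2.63 on the log2 scale. No gene outside the set therefore came as near to the globins as Alas2 did.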

How the data were processed

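The authors deposited 1 table with estimated read counts (expected counts) and TPM for each heart, per the file headers. HISAT, Bowtie2 and the build GRCm39 appear in the submitters' processing notes, without versions or roles; no counting program is named there. Per the labels' protocols, libraries were poly(A)-selected and strand-specific. The deposited FPKM columns were not used, and a further 8 per-sample columns were empty.

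Members and lists were chosen with earlier results of these data known. Groups came from sample titles. Counts were rounded, filtered with filterByExpr (minimum count 10, minimum total 15) and fitted with edgeR 4.0.16 in R 4.3.3 (TMM, robust quasi-likelihood F-test, Benjamini-Hochberg over 12826 genes, threshold 0.05); the fit was tested on simulated counts. Alternatives used DESeq2 1.42.0, limma 3.58.1, other scalings and filters, and fits without single or several hearts. Levels are the deposited TPM, and differences use counts. Transcript lengths are medians of GENCODE M21 protein-coding transcripts (matched for 97.4% of tested genes). Named genes were the members, Gpihbp1, the 2 most abundant genes of each list and any past the threshold, the 8 genes nearest to the summed globins, and Pf4, Ahsp, Myl4, Myl7, Postn and Nppa. Other genes were named after their values were seen, and some genes that the rule picks are not reported here. Over the 28 pairs of libraries, chi-square per degree of freedom was 7.29 or more, so each pair differed beyond counting error. Reads lack molecular identifiers, so intervals from counts cover counting error only.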

Additional observations from a re-analysis of the deposited data

Results flagged for a closer look

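In groups of 4 hearts, a value was looked at again where its gap to the nearest other heart exceeded Dixon's 95% critical share of the group's range. Among 54 gene levels and ratios by group, 8 did so. Myl4, Myl7, Postn and Nppa were included because earlier results of these data showed them to mark the hearts that stand apart. The count of 8 can therefore not be set against a chance rate. Wild-type 6 was the far heart for Myl4 (gap 0.99971 of the range), Myl7 (0.998) and Nrgn (0.841). Knockout 2 was the far heart among the knockouts for Postn (0.996), Nppa (0.977) and Pf4 (0.988), and wild-type 2 among the wild types for Postn (0.988) and Pf4 (0.916). For the 4 globins, Alas2 and Slc4a1 the gap in TPM did not exceed this value in either group, although wild-type 6 was highest in 5 of the 6. The check was not run on the scaled counts of the fits. There the summed globins of wild-type 6 lay 4.30 log2 units above the mean of the other 7 hearts. The TPM check therefore does not show that wild-type 6 was an ordinary heart for globins.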

How the results depend on the processing

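Depth limited Slc4a1, with 21 reads over the knockout and 46 over the wild type, and the spread between hearts limited the rest. None of the 5 tested red cell genes passed under any alternative. DESeq2 gave no p for Hba-a1 and Hba-a2, and an unadjusted p of 0.0197 for Hbb-bt (adjusted p = 0.99969). Over the fits that left out 1 heart, log2 fold changes ran from -2.77 to 0.017 for Hba-a1, -2.80 to 0.049 for Hba-a2, -2.54 to 0.0084 for Hbb-bs, -2.48 to -0.047 for Hbb-bt and -1.64 to 0.42 for Alas2, each highest when wild-type 6 was left out. With knockout 2, wild-type 2 and wild-type 6 left out together they were 1.24, 1.27, 1.33, 1.35 and 1.35 in the same order. Alas2 was at 0.0054 in limma on log2(TPM + 0.1). Genes past the threshold numbered 4 in edgeR, 8 in DESeq2, 2 with the strict filter and 2 to 3 with 1 heart left out, with 2 when wild-type 4 or wild-type 5 was left out; the cause was not tested. With the replicate number from the titles as a replicate block, 168 genes passed and Hba-a1 had -0.74, Hba-a2 -0.58, Hbb-bs -0.67, Hbb-bt -0.70 and Alas2 -0.22. The genotypes share 2 numbers, whose hearts' deviations correlated at 0.908 (number 2) and 0.110 (number 4), and nothing in the labels says that a number pairs hearts. In limma on log2(TPM + 1) list medians were 0.33 for haem synthesis, 0.29 for iron supply, 0.17 for red cell maturation and 0.21 for erythroid factors. With a prior count of 0.5, 7 of the 8 genes nearest to the globins were shared.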
